A study of Homo sapiens with 12 samples.

Results

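The basic leucine zipper (bZIP) genes *ATF3*, *ATF4*, *ATF5*, *CEBPB*, *CEBPD*, *CEBPG*, *DDIT3*, *JDP2* and *NFIL3* were examined as a group of stress-response transcription factors, listed by gene symbol and matched to the symbols of the count tables. All 9 were found among 43236 symbols, and all 9 were among the 15979 genes with enough counts to be tested. The cells were MNNG/HOS, an osteosarcoma cell line derived by chemical transformation of HOS cells, which were cultured with the solvent DMSO or with 300 nM NXP800, a small molecule first developed against the heat shock factor 1 pathway. RNA was sequenced after 6 h and after 24 h of culture, with 3 libraries for each of DMSO 6 h, NXP800 6 h, DMSO 24 h and NXP800 24 h. The data describe 1 cell line and 1 dose. The study's methods describe its results in general as means of independent experiments, whereas the labels give a replicate number alone, and the p-values measure the spread between these libraries. The question asked of each gene was whether its RNA level differed between NXP800 and DMSO at 6 h and at 24 h, and whether the response differed between the times.

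bZIP factors bind DNA as dimers, held together by a leucine zipper and contacting DNA through an adjoining basic region, and the choice of partner sets which sites are bound. When the translation factor eIF2α is phosphorylated, in the integrated stress response or the PERK arm of the unfolded protein response (UPR), the *ATF4* messenger is translated more efficiently, and ATF4 then drives genes for amino acid supply and redox balance together with further bZIP genes, among them *DDIT3*, *ATF3* and *CEBPB*. C/EBP proteins are partners of ATF4 and of CHOP, the product of *DDIT3*, and the ATF4 and C/EBP half-sites joined together form the C/EBP-ATF response element. RNA counts do not measure the translation or the stability of these proteins.

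Total gene counts ran from 30810614 to 31947656 per library, and the 2 time points differed in the share of reads on no annotated feature, 6.66 to 8.14% at 6 h and 2.73 to 3.67% at 24 h. Levels at 6 h and at 24 h therefore belong to library sets that cannot be told apart from time, whereas each fold change compares NXP800 with DMSO within a time. Levels are given as CPM, counts scaled to each library's total after TMM adjustment of that total. Of 8 mesenchymal markers, 6 had a mean over 1 CPM, with *VIM* the highest, while *COL1A2* and *COL3A1* stayed at or below 0.378 CPM. The summed level of this list was 5310 to 5605 CPM in DMSO and 4665 to 4830 in NXP800 at 6 h, and 6208 to 7042 against 3952 to 4814 at 24 h. The leukocyte list, with 2 of 7 over 1 CPM, summed to 62.8 to 79.5 CPM in DMSO 6 h, 61.2 to 73.2 in NXP800 6 h, 70.6 to 93.3 in DMSO 24 h and 120 to 155 in NXP800 24 h. Nearly all of that sum was *CD68*, a lysosomal protein also made outside leukocytes. *CD14*, the other marker over 1 CPM, ran from 0.123 to 3.36 CPM, and *TYROBP* was at 0 counts in every library. Epithelial markers, with 3 of 7 over 1 CPM, summed to 1262 to 1520 CPM in DMSO 6 h, 1174 to 1334 in NXP800 6 h, 1735 to 1784 in DMSO 24 h and 1085 to 1362 in NXP800 24 h. Almost all of this came from *KRT8* and *KRT18*. *EPCAM* was present at 5.59 to 10.2 CPM, and *CDH1* stayed at or below 0.0673 CPM. The endothelial list, with 0 of 5 over 1 CPM, summed to 1.58 to 2.08 CPM in DMSO 6 h, 0.706 to 1.29 in NXP800 6 h, 1.27 to 1.48 in DMSO 24 h and 0.495 to 0.957 in NXP800 24 h. The part of these shifts in the results below was not tested.

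NXP800 raised 8 of the 9 genes at 6 h, 6 of them by more than 2-fold, and *ATF5* fell. At 24 h 7 of the 9 were raised, 5 of them by more than 2-fold, while *ATF5* and *CEBPD* fell. By edgeR's quasi-likelihood test at a Benjamini-Hochberg adjusted p under 0.05, the background over all 15979 tested genes was 25.0% increased and 27.8% decreased at 6 h, with 6.02% increased more than 2-fold. At 24 h it was 27.5% increased and 28.6% decreased, with 6.73% increased more than 2-fold. The median log2 fold change of the 9 was 1.43 at 6 h and 1.53 at 24 h, beside medians of -0.046 and -0.003 over all tested genes. The 9 genes were chosen with earlier results of these data known, so their counts and medians are no independent evidence. The test of the difference between the responses called 4 of the 9, all with a smaller or opposite response at 24 h, beside a background of 25.8% called in either direction and 13.8% called negative. With the replicate number as a block, the negative calls went from 2205 to 3339 over all genes and from 4 to 5 among the 9, *CEBPB* being the addition. Unless the block is named, the values below come from the fit without it. In bulk RNA, a lower level per cell and fewer cells expressing a gene cannot be told apart.

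**Figure D1:**
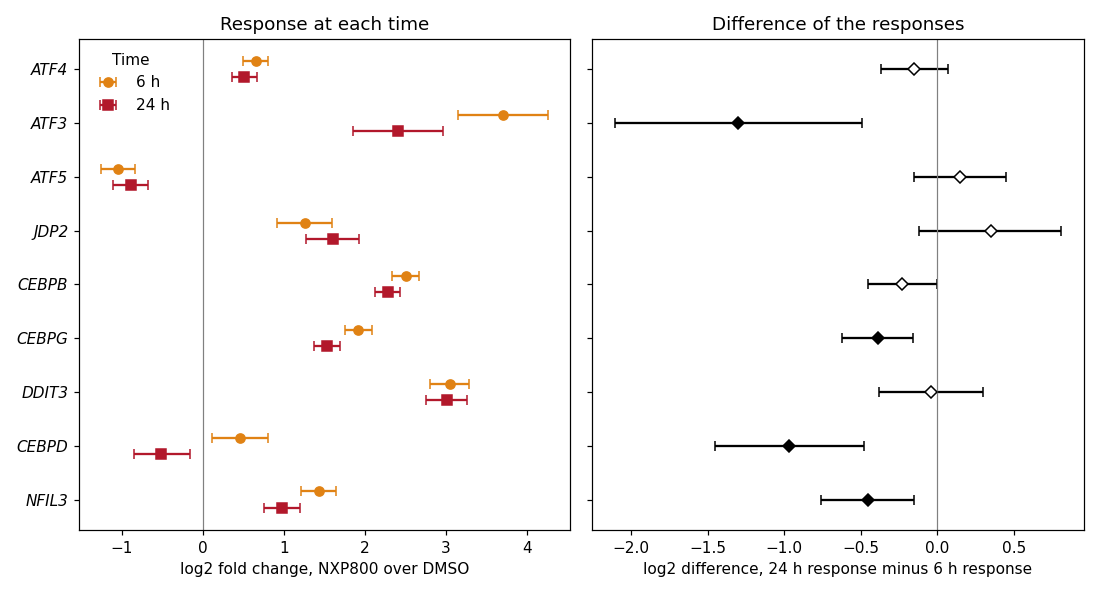
Left, log2 fold change of NXP800 over DMSO for the 9 bZIP genes at 6 h (circles) and 24 h (squares), with 95% confidence intervals from edgeR over 3 libraries per group. Right, the 24 h response less the 6 h response, filled where the adjusted p was under 0.05, which held for *ATF3* (-1.30), *CEBPG* (-0.39), *CEBPD* (-0.97) and *NFIL3* (-0.45).

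*ATF4*, the factor whose translation rises upon eIF2α phosphorylation, was the most abundant of the 9 per kb of transcript and one of the least changed in RNA level. At 6 h the 3 DMSO libraries held 478, 463 and 403 CPM and the 3 NXP800 libraries 733, 704 and 685 CPM. At 24 h the DMSO libraries held 487, 482 and 448 CPM and the NXP800 libraries 706, 678 and 634 CPM. Every treated library lay above every control library at both times, and the controls of the 2 times overlapped. The log2 fold change was 0.66 (SE 0.073, edgeR adjusted p = 1.63e-06) at 6 h and 0.51 (SE 0.073, adjusted p = 1.91e-05) at 24 h, equal to 1.58-fold and 1.43-fold. The difference between these responses was -0.15 with a 95% interval from -0.37 to 0.07 (adjusted p = 0.321). In GRCh38.p14 its gene spans 39520559 to 39522686 of chromosome 22 on the plus strand.

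*ATF5*, the closest relative of *ATF4* and likewise translated under eIF2α phosphorylation, changed in the opposite direction. In CPM, the DMSO libraries held 26.8, 28.3 and 28.3 at 6 h and the NXP800 libraries 14.5, 11.7 and 14.4. At 24 h the values were 30.8, 28.4 and 25.8 in DMSO and 15.4, 16.7 and 13.7 in NXP800. The treated libraries were all below the control libraries, with a wide gap between the groups at both times. On the log2 scale *ATF5* fell by 1.04 (SE 0.10) after 6 h and by 0.89 (SE 0.10) after 24 h, with edgeR adjusted p of 3.82e-07 and 1.51e-06. The 2 responses differed by 0.15, with a 95% interval from -0.15 to 0.45 (adjusted p = 0.489). The ratio of *ATF4* to *ATF5*, computed within each library from CPM per kb of transcript, went from 22.8 ± 2.54 (SD, n = 3) in DMSO 6 h to 74.7 ± 9.32 in NXP800 6 h, and from 23.6 ± 1.13 in DMSO 24 h to 62.6 ± 4.61 in NXP800 24 h. *ATF5* lies on chromosome 19 from 49928906 to 49933935, and 22.1% of its exonic bases in GENCODE 44 are also exonic in *NUP62*, *IL4I1* or *MIR4751*. *NUP62*, on the opposite strand, changed by -0.55 at 6 h and -0.22 at 24 h on the log2 scale.

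*DDIT3* encodes CHOP, a C/EBP-like protein that pairs with other C/EBP factors and takes part in apoptosis under lasting endoplasmic reticulum stress. Its DMSO libraries at 6 h were close together, at 13.0, 13.1 and 13.2 CPM, and its NXP800 libraries held 124, 106 and 94.1 CPM. At 24 h DMSO held 10.5, 8.47 and 9.20 CPM and NXP800 67.6, 87.3 and 71.8 CPM. Treated and control libraries stood far apart at both times, and both the treated and the control levels were lower at 24 h than at 6 h. Its log2 fold changes were 3.05 (SE 0.12, edgeR adjusted p = 2.38e-11) at 6 h and 3.01 (SE 0.12, adjusted p = 2.39e-11) at 24 h, ranking 53 and 79 from the top of all tested genes. Their difference was -0.04, with a 95% interval from -0.38 to 0.30 (adjusted p = 0.893), and its sign turned to 0.04 with scaling by library size only. Among the 9, *DDIT3* thus held the largest response at 24 h and the one whose estimate moved least between the times. The gene lies on chromosome 12 from 57516588 to 57520517 on the minus strand, where 39.6% of its exonic bases overlap exons of other genes, 8.03% on its own strand. *MARS1*, a methionyl-tRNA synthetase gene whose exons overlap it on the opposite strand, rose by 0.84 at 6 h and 0.69 at 24 h. The library kit was strand-specific, but the strand setting of the counting is not given in the sources used here. If strand was not used, reads from such overlaps cannot be told apart. Reads ambiguous between genes were set aside, 2.10 to 2.43% of each table, and the share of them from these overlaps is not known.

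*CEBPB*, an inducible activator and a partner of both ATF4 and CHOP, responded with the smallest relative error of the 9. At 6 h it held 48.7, 46.4 and 45.3 CPM in DMSO and 276, 274 and 247 CPM in NXP800. At 24 h it held 46.9, 39.1 and 39.5 CPM in DMSO and 198, 214 and 198 CPM in NXP800. The groups were far apart at both times, and the treated libraries of 24 h all lay below those of 6 h. NXP800 changed it by a log2 fold of 2.51 (SE 0.077, edgeR adjusted p = 3.04e-12) at 6 h and 2.28 (SE 0.077, adjusted p = 6.70e-12) at 24 h, or 5.69-fold and 4.86-fold. The difference of -0.23 did not pass the threshold (adjusted p = 0.128), but did with the replicate number as a block (-0.22, adjusted p = 0.0464). *CEBPB* is a gene of 1 exon on chromosome 20 from 50190583 to 50192690, and 12.6% of its exonic bases overlap *CEBPB-AS1* on the opposite strand, which rose by 2.45 at 6 h and 2.14 at 24 h.

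*CEBPG*, which encodes a short C/EBP protein without a strong activation domain of its own and a frequent partner of ATF4, rose with *CEBPB*. Its DMSO libraries held 58.2, 63.3 and 58.4 CPM at 6 h and its NXP800 libraries 235, 233 and 215 CPM. The 24 h values were 56.2, 44.8 and 51.1 CPM in DMSO and 141, 153 and 146 CPM in NXP800. No treated library overlapped a control, and the treated level at 24 h was below that at 6 h in every library. The response on the log2 scale was 1.92 (SE 0.077, edgeR adjusted p = 3.66e-11) at 6 h and 1.53 (SE 0.077, adjusted p = 2.35e-10) at 24 h. The response was smaller at 24 h, with a difference of -0.39 (95% interval -0.62 to -0.16, adjusted p = 0.0134). *CEBPG* lies on chromosome 19 from 33373709 to 33382686 on the plus strand, with no exon shared with another annotated gene.

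*CEBPD*, an acute-phase C/EBP gene, was the 1 member that moved in opposite directions at the 2 times. It held 7.76, 8.86 and 6.71 CPM in DMSO and 11.5, 12.1 and 8.44 CPM in NXP800 at 6 h. At 24 h it held 8.97, 12.2 and 12.3 CPM in DMSO and 7.89, 6.62 and 9.03 CPM in NXP800. The groups overlapped by 1 library on each side at both times, and the DMSO libraries of 24 h all lay above those of 6 h. The log2 fold change was 0.46 (SE 0.16, edgeR adjusted p = 0.0262) at 6 h and -0.51 (SE 0.16, adjusted p = 0.0140) at 24 h. Within same-numbered libraries, *CEBPD* was higher with NXP800 in 3 of 3 pairs at 6 h and lower in 3 of 3 at 24 h. With the replicate number as a block the values were 0.45 (adjusted p = 0.00137) and -0.51 (adjusted p = 0.000498). Without the block, both calls depended on single libraries. The 6 h call was lost without DMSO 6 h replicate 1 (0.45, adjusted p = 0.0622) or 3 (0.36, adjusted p = 0.107) and without NXP800 6 h replicate 1 (0.40, adjusted p = 0.0903) or 2 (0.36, adjusted p = 0.114). The 24 h call was lost without DMSO 24 h replicate 2 (-0.44, adjusted p = 0.0573) or 3 (-0.44, adjusted p = 0.0578) and without NXP800 24 h replicate 2 (-0.37, adjusted p = 0.0881). The difference between the responses was -0.97 (SE 0.23, adjusted p = 0.00582) and passed the threshold in all 19 alternatives, with adjusted p up to 0.0192. Of all tested genes, 338 or 2.12% were called in opposite directions at the 2 times. *CEBPD* lies on chromosome 8 from 47736913 to 47738164.

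*ATF3* encodes a stress-induced factor that represses or activates depending on its partner, and gave the largest response of the 9 at 6 h from the lowest mean level per kb in DMSO. Its 6 h values were 2.00, 1.14 and 1.82 CPM in DMSO and 29.4, 21.5 and 13.9 CPM in NXP800. At 24 h they were 1.74, 1.88 and 2.06 CPM in DMSO and 7.69, 11.1 and 11.4 CPM in NXP800. Treated and control libraries were far apart, the 3 treated libraries at 6 h were spread over more than a doubling, and all of them lay above those at 24 h. The lowest control library held 36 counts, with an exact 95% Poisson interval from 25.2 to 49.8 that covers counting error only. The log2 fold change was 3.71 (SE 0.26, edgeR adjusted p = 1.17e-08) at 6 h, ranking 27 from the top of all tested genes, and 2.41 (SE 0.27, adjusted p = 1.17e-06) at 24 h. The response was smaller at 24 h, with a difference of -1.30 (95% interval -2.11 to -0.49, adjusted p = 0.0208). That call was lost without DMSO 6 h replicate 2 (-1.09, adjusted p = 0.0594) or DMSO 24 h replicate 3 (-1.24, adjusted p = 0.0507). *ATF3* lies on chromosome 1 from 212565407 to 212620777.

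*JDP2*, the nearest relative of *ATF3* and a repressor at AP-1 sites, rose from a level per kb near that of *ATF3*. At 6 h it held 7.03, 5.49 and 5.83 CPM in DMSO and 14.5, 13.6 and 15.9 CPM in NXP800. At 24 h it held 10.2, 6.25 and 7.28 CPM in DMSO and 22.1, 22.3 and 28.0 CPM in NXP800. The groups did not overlap at either time, and the treated libraries of 24 h all lay above those of 6 h, the reverse of *ATF3*. *JDP2* thus rose by 1.26 (SE 0.16, edgeR adjusted p = 5.92e-06) at 6 h and 1.61 (SE 0.15, adjusted p = 2.49e-07) at 24 h on the log2 scale. The difference of 0.35 had a 95% interval from -0.12 to 0.81 (adjusted p = 0.271), and passed the threshold without DMSO 24 h replicate 1 (0.57, adjusted p = 0.0379). Per kb of transcript, the ratio of *ATF3* to *JDP2* was 0.742 ± 0.151 (SD, n = 3) in DMSO 6 h, 4.16 ± 1.62 in NXP800 6 h, 0.697 ± 0.197 in DMSO 24 h and 1.16 ± 0.211 in NXP800 24 h. *JDP2* lies on chromosome 14 from 75426943 to 75474107.

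*NFIL3*, which encodes a repressor that binds the same D-box sites as the clock-controlled activators DBP, TEF and HLF, rose at both times. Its 6 h values were 25.4, 26.0 and 24.3 CPM in DMSO and 73.4, 72.6 and 58.2 CPM in NXP800. At 24 h DMSO held 28.2, 22.6 and 25.2 CPM and NXP800 44.6, 54.7 and 50.6 CPM. Control levels overlapped between the 2 times, treated and control libraries did not overlap, and the treated libraries of 24 h all lay below those of 6 h. The log2 fold change was 1.43 (SE 0.10, edgeR adjusted p = 1.35e-08) at 6 h and 0.98 (SE 0.10, adjusted p = 6.92e-07) at 24 h. The difference of -0.45 passed narrowly (95% interval -0.76 to -0.15, adjusted p = 0.0297). It was lost with scaling by library size only (-0.37, adjusted p = 0.0865) and without DMSO 6 h replicate 1 or 3, NXP800 6 h replicate 1 or 2, DMSO 24 h replicate 1 or NXP800 24 h replicate 1 (adjusted p from 0.0538 to 0.0819). *DBP* itself, at 3.27 ± 0.322 CPM in DMSO 6 h and 1.39 ± 0.228 in NXP800 6 h, changed by a log2 fold of -1.23 at 6 h (adjusted p = 0.000214) and of -0.72 at 24 h (adjusted p = 0.00825). *TEF* moved the other way, rising by 0.81 (adjusted p = 0.00115) at 6 h and 0.92 (adjusted p = 0.000338) at 24 h. *HLF*, at mean levels of 0.584 to 1.41 CPM, had log2 fold changes of 0.61 (adjusted p = 0.0624) and 1.13 (adjusted p = 0.00335) and so passed the threshold at 24 h alone. *NFIL3* lies on chromosome 9 from 91409045 to 91483497 on the minus strand.

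**Figure D2:**
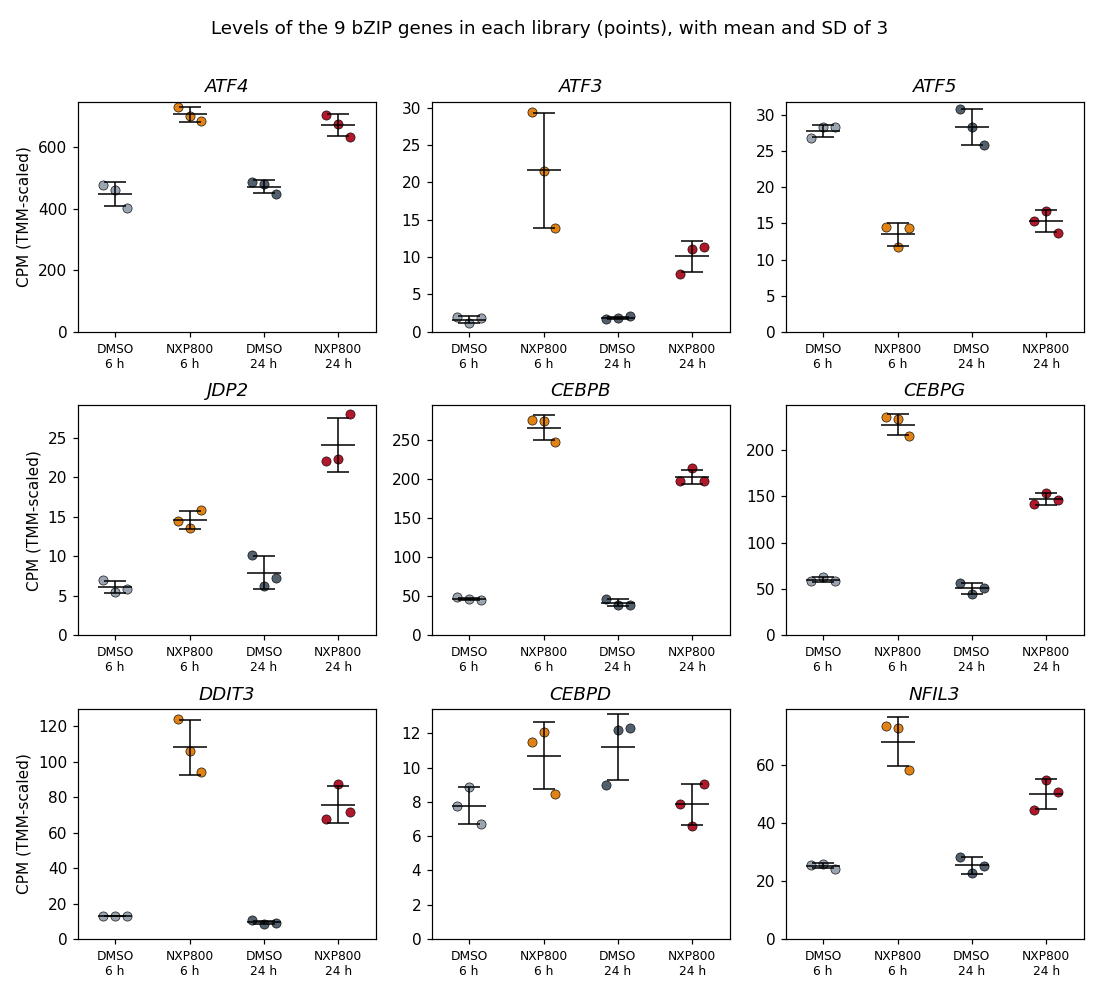
TMM-scaled CPM of each bZIP gene in each of the 12 libraries (points, replicates 1 to 3 from left to right), with the mean and SD of each group, on linear axes from 0. *ATF5* was lower in every NXP800 library, *CEBPD* overlapped between the groups at both times, and the other 7 genes were higher in every NXP800 library than in any DMSO library of the same time.

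Because a longer transcript yields more reads, levels of different genes were compared only as CPM per kb of the representative (MANE Select) transcript in GENCODE 44, which runs from 903 bases for *DDIT3* to 5378 bases for *JDP2*. On this scale *ATF4* made up 77.7% of the summed level of the 9 genes in DMSO 6 h (76.3 to 78.8% over 3 libraries) and 56.3% in NXP800 6 h (55.1 to 58.1%). At 24 h its share was 79.7% (79.0 to 81.0%) in DMSO and 62.8% (61.1 to 65.3%) in NXP800. The summed level itself went from 406 ± 29.6 (SD, n = 3) to 886 ± 53.6 CPM per kb at 6 h and from 417 ± 18.2 to 755 ± 29.9 at 24 h. The share of *ATF4* was thus lower with NXP800 while its own level was higher, as *CEBPB*, *DDIT3* and *CEBPG* rose by larger factors.

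The order of the length-scaled levels changed with treatment. In DMSO 6 h it was *ATF4* (316 CPM per kb), *CEBPB* (25.4), *CEBPG* (16.1), *DDIT3* (14.5), *ATF5* (13.9), *NFIL3* (12.3), *CEBPD* (6.21), *JDP2* (1.14) and *ATF3* (0.851), with overlapping libraries for the last pair alone. The spread of libraries does not cover the choice of length, 903 of 1307 exonic bases for *DDIT3* and 2007 of 2892 for *ATF5*. Nor does it cover exon overlap with other genes, so the order of close levels is uncertain. In DMSO 24 h the 5 genes *ATF5*, *CEBPG*, *NFIL3*, *DDIT3* and *CEBPD*, from 14.1 down to 8.91 CPM per kb, each overlapped the next in order. With NXP800 at 6 h *DDIT3* stood at 120 ± 16.9 (SD, n = 3) CPM per kb, overlapping *CEBPB* at 145 ± 8.94 and clear of *CEBPG* at 60.9 ± 3.01 and *NFIL3* at 33.1 ± 4.18. With NXP800 at 24 h the upper order was *ATF4* (474), *CEBPB* (111), *DDIT3* (83.7), *CEBPG* (39.3) and *NFIL3* (24.3), each clear of the next. The lower genes *ATF5* (7.61), *CEBPD* (6.26), *ATF3* (5.18) and *JDP2* (4.48) overlapped each with the next.

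**Figure D3:**
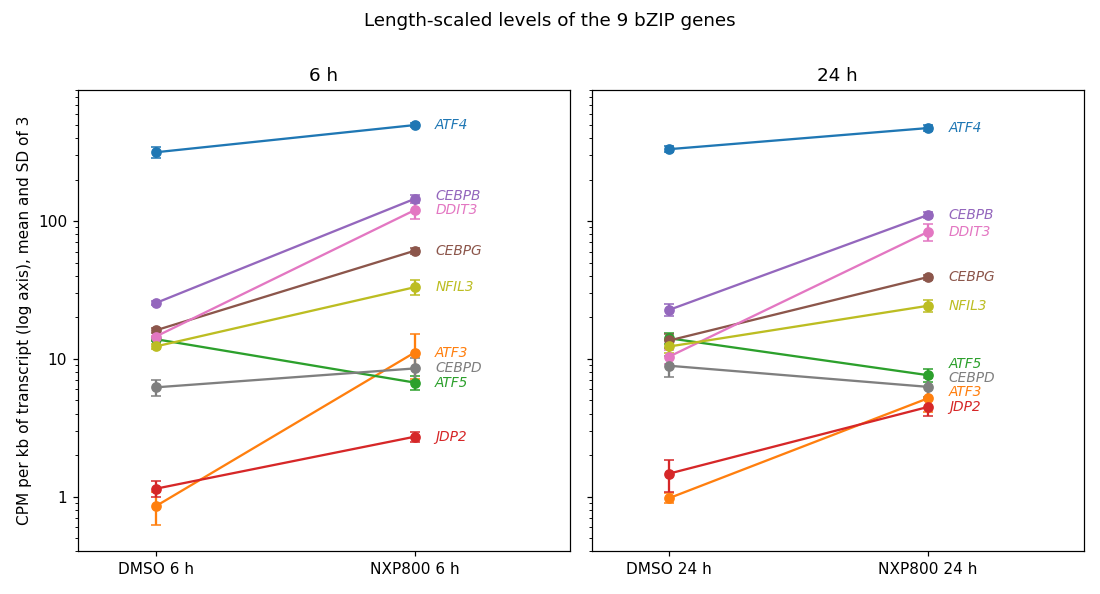
Mean and SD (n = 3) of CPM per kb of transcript on a log axis, DMSO to the left and NXP800 to the right, at 6 h and at 24 h. *ATF4* stayed uppermost, *DDIT3* rose from among *CEBPG*, *ATF5* and *NFIL3* to near *CEBPB*, and *ATF5* fell below *NFIL3* at both times.

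The balance among possible dimer partners, again as ratios of CPM per kb within a library, also differed between the treatments. *DDIT3* to *CEBPB* was 0.571 ± 0.0252 (SD, n = 3) in DMSO 6 h and 0.827 ± 0.0783 in NXP800 6 h, and 0.458 ± 0.0163 and 0.755 ± 0.0708 at 24 h. *CEBPB* to *CEBPG* was 1.58 ± 0.106 and 2.37 ± 0.0314 at 6 h, and 1.68 ± 0.101 and 2.81 ± 0.0458 at 24 h. For both ratios the treated libraries lay above all control libraries of the same time. *DDIT3* to *ATF4* was 0.0462 ± 0.00457 in DMSO 6 h and 0.240 ± 0.0255 in NXP800 6 h, and 0.0313 ± 0.00332 and 0.177 ± 0.0261 at 24 h, so the messenger for CHOP remained a minority beside that for ATF4 in every library. *CEBPB* to *CEBPD* moved from 4.14 ± 0.526 to 17.3 ± 2.35 at 6 h and from 2.64 ± 0.797 to 18.0 ± 3.60 at 24 h. These ratios describe RNA, rest on the representative transcript length of each gene and were given no test.

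Promoter windows of 250 bases before to 50 bases after annotated start sites were searched for 2 motifs on both strands, since 8 of the 9 genes rose together at 6 h. The RefSeq table for GRCh38.p14 held 18 windows for 8 of the 9 genes, and *CEBPD* was not among them. Windows of the same gene can nearly coincide, so the 18 are not separate sequences. Those of *ATF4* begin at 39520309 and 39520312, and those of *DDIT3* at 57520465 and 57520468. TGATGNAAT, a form of the C/EBP-ATF response element with a fixed last letter, was found in 0 of the 18. It was in 0.991% of all 35116 windows. The cyclic AMP response element TGACGTCA was found in 0 of the 18, beside 1.85% of all. The shorter TGATGNAA, which lies within the first motif and was chosen after its result was seen, was found in 3 of the 18 windows and in 3.62% of all. They belong to *CEBPG*, *JDP2* and *ATF3* and are shown because these are the members with a match, with the matched letters in capitals. Windows are chr19:33373863-33374162 for *CEBPG*, chr14:75427772-75428071 for *JDP2* and chr1:212565157-212565456 for *ATF3*, all on the plus strand.
CEBPG: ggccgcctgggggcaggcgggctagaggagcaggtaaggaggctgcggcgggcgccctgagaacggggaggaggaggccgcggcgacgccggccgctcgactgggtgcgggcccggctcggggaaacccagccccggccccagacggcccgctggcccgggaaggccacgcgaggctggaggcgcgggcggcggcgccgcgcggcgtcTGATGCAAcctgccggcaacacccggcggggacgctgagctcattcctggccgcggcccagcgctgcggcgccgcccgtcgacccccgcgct
JDP2: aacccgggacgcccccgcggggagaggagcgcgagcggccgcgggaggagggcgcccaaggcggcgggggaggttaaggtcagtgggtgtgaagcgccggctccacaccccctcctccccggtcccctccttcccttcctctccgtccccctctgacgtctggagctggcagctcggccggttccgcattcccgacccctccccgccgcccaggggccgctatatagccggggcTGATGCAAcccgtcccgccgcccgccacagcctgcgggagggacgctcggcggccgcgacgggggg
ATF3: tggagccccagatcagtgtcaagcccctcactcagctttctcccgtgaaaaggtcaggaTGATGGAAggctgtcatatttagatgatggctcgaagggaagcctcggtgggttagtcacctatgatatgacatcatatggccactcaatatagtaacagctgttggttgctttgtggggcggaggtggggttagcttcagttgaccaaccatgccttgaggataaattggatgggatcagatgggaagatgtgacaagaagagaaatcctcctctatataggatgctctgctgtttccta
The match begins 42 bases before the start site of the window shown in *CEBPG*, 16 bases before it in *JDP2* and 191 bases before it in *ATF3*. Each of these genes has further windows at other start sites, which held no match. Which start sites were used in these cells was not examined. *CEBPG* and *JDP2* share the letters TGATGCAA, whereas *ATF3* has TGATGGAA. A match is no evidence of binding, and where there is none it says only that these letters are not in these windows.

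Of 45 other bZIP genes, 40 were tested, of which 24 rose and 3 fell at 6 h, and 26 rose and 3 fell at 24 h, with median log2 fold changes of 0.61 and 0.63, below those of the 9. The shares that rose were 60.0% at 6 h and 65.0% at 24 h, beside 25.0% and 27.5% of all tested genes. The share that fell was 7.50% at both times, beside 27.8% and 28.6% of all tested genes. This list too was chosen with earlier results known, so its shares are no independent evidence. Among called genes of mean log2 CPM at least 1, the largest rises at 6 h were *MAFF*, a small Maf protein without an activation domain (2.39, edgeR adjusted p = 2.45e-10), *CREB5* (2.34, adjusted p = 8.06e-10) and *XBP1*, the UPR factor spliced by IRE1 (2.04, adjusted p = 8.86e-11). At 24 h, within the same limit, they were *XBP1* (1.83, adjusted p = 1.72e-10), *CREB5* (1.75, adjusted p = 1.80e-08) and *CREBRF* (1.38, adjusted p = 6.19e-07). Below that limit, *MAF* (2.28, adjusted p = 4.16e-05) rose more than *XBP1*, and *FOSB* (1.43, adjusted p = 0.000398) more than *CREBRF*. Those that fell at 6 h were *DBP*, *CEBPA* (-0.51, adjusted p = 0.00424) and *CREBZF* (-0.37, adjusted p = 0.0202), and those at 24 h were *NFE2L3* (-1.11, adjusted p = 6.63e-07), *DBP* and *CREBZF* (-0.40, adjusted p = 0.0129). *CEBPA*, the C/EBP factor of differentiated hepatocytes, fat cells and myeloid cells, held 3.32 ± 0.201 CPM (SD, n = 3) in DMSO 6 h and 2.33 ± 0.207 in NXP800 6 h, and 4.72 ± 0.476 and 8.54 ± 0.118 at 24 h. It fell at 6 h and rose at 24 h (0.86, adjusted p = 1.33e-05), with a difference of 1.37 (SE 0.18, adjusted p = 4.91e-05), the reverse order of *CEBPD*.

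**Figure D4:**
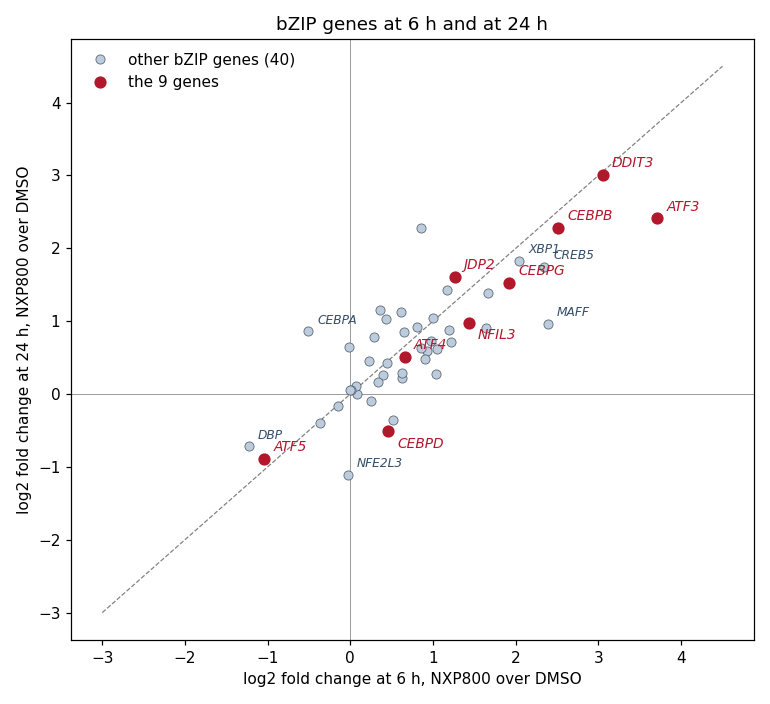
Log2 fold change of NXP800 over DMSO at 24 h against that at 6 h for the 9 genes (red) and 40 other tested bZIP genes (grey), with equality as a dashed line. *DDIT3* lay near the line, *ATF3* below it, *ATF5* in the lower left, and *CEBPD* (0.46, -0.51) and *CEBPA* (-0.51, 0.86) in opposite quadrants.

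Genes known as targets of ATF4 and CHOP moved largely in 1 direction. Of 26 listed, 25 were tested, and at both times 22 rose and 1 fell, with medians of 1.38 at 6 h and 1.51 at 24 h. At both times 88.0% thus rose and 4.00% fell. Of all tested genes, 25.0% rose and 27.8% fell at 6 h, and 27.5% rose and 28.6% fell at 24 h. The list was chosen with earlier results of these data known, so these counts are no independent evidence. The highest at 6 h were *SESN2*, an inhibitor of mTORC1 signalling (4.40, edgeR adjusted p = 3.49e-11), *CTH*, which makes cysteine from cystathionine (4.26, adjusted p = 7.10e-12), and *TRIB3*, a pseudokinase that binds ATF4 and CHOP (4.18, adjusted p = 5.71e-12). At 24 h they were *TRIB3* (3.73, adjusted p = 1.21e-11), *GDF15*, a secreted stress cytokine (3.41, adjusted p = 4.46e-10), and *SESN2* (3.19, adjusted p = 3.10e-10). *ERO1A*, an oxidase of the endoplasmic reticulum, fell by 0.38 at 6 h (adjusted p = 9.46e-05) and by 0.39 at 24 h (adjusted p = 5.38e-05).

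The third list held 10 genes that hold back or degrade these factors or reverse eIF2α phosphorylation, all tested, of which 4 rose and 3 fell at 6 h, and 6 rose and 2 fell at 24 h. Over all tested genes 25.0% rose and 27.8% fell at 6 h, and 27.5% rose and 28.6% fell at 24 h, so the 3 of 10 that fell at 6 h were close to the background share. Earlier results of these data were known when this list was chosen as well. *TRIB3* and *PPP1R15A* are in both this list and that of ATF4 and CHOP targets, so their rises are counted in each. *PPP1R15A* (GADD34), which brings a phosphatase to eIF2α, went from 112 ± 6.28 to 648 ± 95.4 CPM (SD, n = 3) at 6 h and from 69.3 ± 9.99 to 323 ± 63.6 at 24 h. Its log2 fold changes were 2.53 (edgeR adjusted p = 6.39e-10) and 2.22 (adjusted p = 1.77e-09). *TRIB1*, which targets C/EBP proteins for degradation through COP1, rose by 0.83 (adjusted p = 3.74e-07) and 1.04 (adjusted p = 2.39e-08), whereas *TRIB2*, with the same known role, went from 48.4 ± 2.77 to 12.7 ± 1.29 CPM at 6 h and from 52.2 ± 8.06 to 8.86 ± 1.19 at 24 h. *TRIB2* changed by -1.92 (adjusted p = 2.11e-09) at 6 h and by -2.56 (adjusted p = 1.24e-10) at 24 h, so the 3 Tribbles genes did not all move in 1 direction. *EGLN3*, a prolyl hydroxylase that acts on ATF4, changed by -1.52 (adjusted p = 3.35e-07) and -1.93 (adjusted p = 2.51e-08). *BTRC*, a subunit of the ubiquitin ligase for ATF4, fell at 6 h (-0.23, adjusted p = 0.00787) and rose at 24 h (0.43, adjusted p = 4.29e-05), with a difference of 0.66 (adjusted p = 0.000108).

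Across the 12 libraries, the log2 CPM of *ATF5* ran against that of 7 other members, with Pearson's r from -0.97 with *CEBPB* to -0.83 with *JDP2*. *CEBPD* ran with none, with r from -0.17 with *JDP2* to 0.13 with *ATF3*. The 12 points fall into 4 groups that share treatment and time, and the coefficients are given as a description. Among 12031 other tested genes of mean log2 CPM at least 1, the most similar profiles were *STC2* for *DDIT3* (r = 0.997), *KDM7A* for *CEBPB* (r = 0.996), *SPIRE1* for *CEBPG* (r = 0.996), *KLF4* for *NFIL3* (r = 0.994), *TSSK6* for *JDP2* (r = 0.992), *RIMOC1* for *ATF3* (r = 0.991) and *CDYL* for *ATF4* (r = 0.988). For *ATF5* it was *RAB20* (r = 0.975), and for *CEBPD* *SNAPIN* (r = 0.911). The second in each case was *LOC100288175* for *DDIT3* (0.994), *RAB39B* for *CEBPB* (0.995), *MIA2* for *CEBPG* (0.996), *TGIF1* for *NFIL3* (0.990), *SLC1A4* for *JDP2* (0.984), *ERRFI1* for *ATF3* (0.991), *RAE1* for *ATF4* (0.982), *ATG16L1* for *ATF5* (0.974) and *LITAF* for *CEBPD* (0.899). Pearson's r does not compare the size of responses. *RIMOC1* changed by a log2 fold of 0.56 at 6 h and 0.42 at 24 h, against 3.71 and 2.41 for *ATF3*. *KDM7A* changed by 3.42 and 2.80, more than *CEBPB* at 2.51 and 2.28. *STC2* is also in the list of ATF4 and CHOP targets, and *KLF4* and *TGIF1* encode further transcription factors.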

How the data were processed

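RNA-seq libraries of MNNG/HOS cells were made with a strand-specific mRNA kit and sequenced as paired reads. Per the labels and methods, the authors trimmed reads with fastp 0.20.1, aligned them with STAR 2.7.5a to hg38 with the RefSeq annotation of GRCh38.p14, and deposited raw counts per gene symbol from HTSeq 0.12.4. The strand setting of the counting is not given in the sources used here. Rows naming no gene took 8.02 to 12.2% of each table and were left out. No per-sample column was set aside (0).

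The counts were fitted with edgeR 4.0.16 (R 4.3.3, limma 3.58.1) in 1 model of the 4 groups, with filterByExpr, TMM scaling (factors 0.918 to 1.05) and the quasi-likelihood test. Contrasts were NXP800 against DMSO at 6 h, at 24 h, and the 24 h response minus the 6 h response, with Benjamini-Hochberg adjustment over 15979 genes and a threshold of 0.05. Standard errors and 95% intervals follow from the F statistic. CPM used TMM-scaled library sizes, and log2 CPM a prior count of 2. The 9 genes and the context lists were chosen with earlier results of these data known. All 9 were named. From each context list, the 3 called genes with the largest change in each direction at each time, of mean log2 CPM at least 1, were named. For likeness, the 2 genes of highest Pearson correlation were named for each member. *NUP62*, *MARS1* and *CEBPB-AS1* were named, after their values were seen, for their overlap with members. *TEF*, *HLF*, *MAF* and *FOSB* were also named after their values were seen.

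Replicates with the same number deviated together (r from 0.159 to 0.329, against -0.268 to 0.0580 for different numbers). Deviations were taken from each group's mean, so higher values for same numbers lower those for different numbers, and these ranges are not independent. The numbers were treated as possible pairs in an alternative fit, given where it changed a call and for *CEBPD*. The main fit, its standard errors and the fits without a library did not use this pairing. No pair of replicates agreed within sampling noise (chi-square per degree of freedom 7.36 to 26.3). Counts were also simulated without pairing, with 200 well-counted genes changed 2-fold at 6 h, equally up and down. Of these, 192 of 200 were recovered at 6 h with 9 other calls among 15654 genes, and 174 of 200 for the difference with 11 other calls. Far more genes were called in the data, so these figures are no error rate for the data. DESeq2 1.42.0, other scalings and filters, a stricter threshold of 0.01, the replicate block, single time points and leaving out each library were tried as alternatives.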

Additional observations from a re-analysis of the deposited data

Results flagged for a closer look

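Of the 9 members, 4 gave a response at 24 h that differed from their response at 6 h by the interaction test in edgeR. The difference of log2 fold changes was -1.30 for *ATF3*, -0.97 for *CEBPD*, -0.39 for *CEBPG* and -0.45 for *NFIL3*. All 12 libraries entered each test. For *ATF3*, *CEBPG* and *NFIL3* the response kept its direction and was smaller at 24 h, and for *CEBPD* it turned from positive to negative. The *ATF3* call was lost without either of 2 single libraries and the *NFIL3* call without any 1 of 6, whereas those of *CEBPD* and *CEBPG* stayed past the threshold with each library left out in turn.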

How the results depend on the processing

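The calls of 8 of the 9 genes at 6 h and at 24 h kept their direction and stayed past the threshold in all 20 alternatives, and *CEBPD* did so in 15 of 20 at 6 h and 16 of 20 at 24 h. These alternatives include leaving out each library of the other time. Such a library enters a comparison only through the shared filter, scaling and spread, so those outcomes were nearly fixed. Apart from the stricter threshold, every *CEBPD* loss came from leaving out a library of the same time. At an adjusted p under 0.01, 1 of the 9 genes fell at 24 h and 1 had a negative difference. Leaving out each library in turn gave 1 to 2 genes that fell at 24 h and 0 to 1 with a positive difference. The *DDIT3* difference changed sign with scaling by library size only (0.04) and ranged from -0.16 to 0.07 with each library left out, never past the threshold, and the cause was not tested. With the replicate block (paired fit), the difference was positive for 2945 of all genes and negative for 3339, against 1924 and 2205 without it, and *CEBPB* passed (-0.22). At an adjusted p under 0.01 these counts were 946 and 1290. The block changed no other call of the 9 genes. With library size only, the median log2 fold change of all genes at 24 h was 0.086. Depth limits *ATF3* most, at 36 counts in 1 library.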
